A study of Mus musculus with 6 samples.

Results

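The amyloid precursor protein gene *App*, its relatives *Aplp1* and *Aplp2*, the lipoprotein receptor genes *Lrp1*, *Lrp4* and *Lrp8*, the sorting receptor gene *Sorl1*, the BRI protein genes *Itm2b* and *Itm2c* and the APP adaptor gene *Apbb1* were taken by symbol from a table of mouse cortex expression. All 10 symbols were found once each among 34745 genes. The libraries were made from total RNA of the cerebral cortex at postnatal day 8. The 3 Pen-2 cKO samples carried floxed *Pen-2* alleles (Pen-2 F/F) together with hGFAP-Cre, a transgene in which a human GFAP promoter drives Cre recombinase. The 3 control samples were of genotype Pen-2 F/F and lacked the transgene, so both groups carry the floxed alleles, and an effect of Cre itself cannot be told apart from one of the deletion. Nothing in the labels states that the numbered samples of a group came from separate animals, and the p-values therefore measure only how far these samples spread, which may be technical.

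The product of *Pen-2* belongs to γ-secretase, an intramembrane protease complex that cuts the membrane stubs left after the outer part of a type I membrane protein has been shed. APP and its relatives are its best known substrates beside Notch, and LRP1, LRP4, LRP8 and SORL1 are type I receptors that are likewise shed and then cut. These receptors carry apolipoprotein E, reelin, agrin and other ligands, and several of them bind APP and steer its traffic through the endosome. The BRI proteins run through the membrane in the opposite orientation, and the product of *Itm2b* is cut by other intramembrane proteases. The BRI proteins also bind APP and slow its processing. The values below are RNA levels and do not measure how much of any protein was cut.

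Many of these proteins meet the same adaptors through a short cytoplasmic signal named NPxY (asparagine, proline, any residue, tyrosine). APBB1, also called Fe65, binds the one in APP. To show what the members share, the codons of that signal were looked for, in frame, in the last 150 codons of 1 coding sequence a gene from the GENCODE M21 transcripts of mm10. *App*, *Aplp1*, *Aplp2*, *Lrp4* and *Lrp8* held 1 match each and *Lrp1* held 2, while *Sorl1*, *Itm2b*, *Itm2c* and *Apbb1* held none in that window. The BRI proteins run in the opposite orientation, so the end of their coding sequence does not encode a cytoplasmic tail, and APBB1 is itself an adaptor. For *Itm2b*, *Itm2c* and *Apbb1* the search therefore could not show whether such a tail signal is present. Of 20319 coding genes searched in the same way, 228 (1.12%) held a match. Each line gives 48 coding bases, 5′ to 3′, with the 12 bases of the signal in capitals.
App: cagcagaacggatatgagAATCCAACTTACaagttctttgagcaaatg
Aplp1: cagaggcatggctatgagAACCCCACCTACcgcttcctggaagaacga
Aplp2: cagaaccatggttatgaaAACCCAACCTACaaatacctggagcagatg
Lrp1, first match: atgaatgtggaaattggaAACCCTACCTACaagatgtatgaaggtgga
Lrp1, second match: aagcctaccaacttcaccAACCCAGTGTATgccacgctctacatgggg
Lrp4: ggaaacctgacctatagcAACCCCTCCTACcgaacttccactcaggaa
Lrp8: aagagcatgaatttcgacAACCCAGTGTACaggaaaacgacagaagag

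The stretches shown lie on mm10 at chr16:84955340-84955387 (minus strand) for *App*, chr7:30435299-30435346 (minus) for *Aplp1*, chr9:31150880-31150927 (minus) for *Aplp2*, chr10:127539290-127539337 (minus) for the first match of *Lrp1*, chr2:91508503-91508550 (plus) for *Lrp4* and chr4:107869043-107869090 (plus) for *Lrp8*. The second stretch of *Lrp1* crosses an exon boundary. In the APP family the signal sits close to the end of the protein, with 8 codons after it in *App*, 7 in *Aplp1* and 8 in *Aplp2*. Over the 48 bases shown, *App* shared 35 with *Aplp2* and 30 with *Aplp1*, and *Aplp1* shared 33 with *Aplp2*. In *Lrp4* the match lay 136 codons from the end and in *Lrp8* 97. A match is a run of letters and was not tested as a binding site here.

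Depths inferred from the smallest steps between values ran from 25100000 to 26800000 fragments in the cKO libraries and from 20200000 to 24900000 in the control libraries. Values are FPKM, which scale fragments for gene length and depth. The effective length of genes with more than 1 transcript, as all members are, is not known. Comparisons of level between genes are therefore approximate. *Psenen*, which encodes PEN-2, was 3.56, 3.90 and 4.03 FPKM in cKO libraries, against 6.35, 6.86 and 7.32 FPKM in control libraries (log2 difference -0.82, SE 0.09, limma adjusted p = 0.00441). It was the one of 7 γ-secretase subunit genes that fell, and none rose. Excitatory cortical neuron markers were present in both groups, with *Slc17a7* at 204 ± 25.9 FPKM in cKO and 209 ± 36.7 FPKM in control cortex (SD, n = 3 each), and none of 7 such markers passed the test (limma gave 2 at an unadjusted p under 0.05, which 22.9% of all tested genes had). Of other cell types' markers, 1 of 7 for microglia, 1 of 5 for endothelial cells and 3 of 6 for meningeal fibroblasts were higher in cKO cortex, and none lower. The test was run on 14147 genes that reached 0.5 FPKM in 3 or more libraries, of which 783 (5.53%) had an adjusted p under 0.05, with 519 higher and 264 lower in cKO cortex. That split moved with scaling, to 312 higher and 346 lower under median-ratio scaling, 909 and 244 where all libraries were given the same sum, 319 and 339 under upper-quartile scaling, and 331 and 378 once length and GC content were corrected for. Leaving out cKO replicate 3, where the choroid plexus gene *Ttr* peaked at 876.5 FPKM, gave 314 and 307.

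Of the 10 genes, 1 fell and none rose in cKO cortex. The gene that fell was *Lrp4*, and it was also the member with the lowest level. Among all tested genes 1.87% fell and 3.67% rose. The median log2 difference of the 10 genes was 0.00, beside 0.07 for all tested genes. In 2 members, *Lrp4* and *Sorl1*, every cKO library lay below every control library, which was so in 8.17% of tested genes. Groups lay apart in 29.7% of tested genes in either direction and in 21.5% with the cKO libraries higher. The remaining 8 had overlapping groups, and among them the 95% interval of *Lrp8* was the widest, while no interval of the others reached below -0.35 or above 0.33 on the log2 scale.

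**Figure D1:**
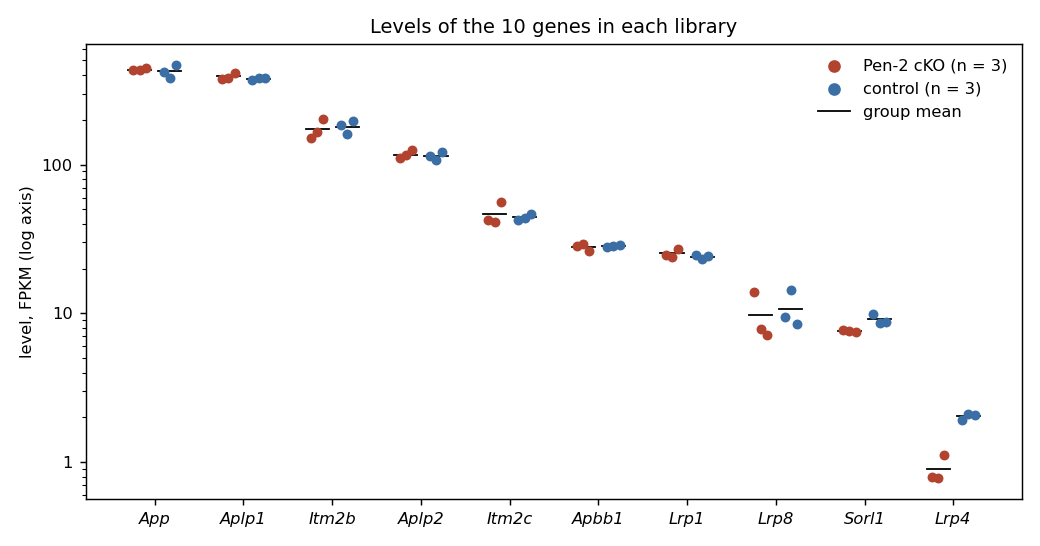
Level of each of the 10 genes in FPKM (log axis) in the 3 Pen-2 cKO and 3 control libraries, with each group's mean as a line, ordered by the cKO mean. The groups lie apart for *Lrp4* (0.781 to 1.12 FPKM in cKO, 1.93 to 2.10 FPKM in control) and narrowly for *Sorl1* (7.53 to 7.69 and 8.61 to 9.95 FPKM), and overlap for the others.

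The levels spanned a wide range, and the order of the group means was the same in both groups. In cKO cortex the mean levels ran from *App* through *Aplp1*, *Itm2b*, *Aplp2*, *Itm2c*, *Apbb1*, *Lrp1*, *Lrp8* and *Sorl1* down to *Lrp4*. *App* ranked at the 99.7th percentile of tested genes by its level and *Lrp4* at the 18.7th percentile. Neighbours in that order were separated by their libraries in both groups, apart from 3 pairs. *App* and *Aplp1* overlapped in control libraries only, *Apbb1* and *Lrp1* in cKO libraries only, and *Lrp8* and *Sorl1* in both groups. The step from *Sorl1* down to *Lrp4* was 8.48-fold in cKO cortex and 4.46-fold in control cortex.

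*Lrp4* encodes a receptor known best at the nerve-muscle junction, where it binds agrin and activates the kinase MUSK. The gene (ENSMUSG00000027253, mm10 chromosome 2, 91457511 to 91513779, plus strand) was at 0.791, 0.781 and 1.12 FPKM in cKO libraries 1, 2 and 3, against 1.93, 2.10 and 2.09 FPKM in control libraries 1, 2 and 3. All cKO libraries were below all control libraries, and cKO replicate 3 was the highest of its group. The mean fell to 0.897 ± 0.193 FPKM in cKO cortex, against 2.04 ± 0.0954 FPKM in control cortex, which is 43.9% of the control level. The log2 difference was -1.12 (SE 0.17, 95% interval -1.51 to -0.73, limma adjusted p = 0.0130), and 0.983% of tested genes had a lower one. The low level makes the size depend on the pseudocount: with 1 FPKM added before the logarithm in place of 0.1 the difference was -0.69, still past the threshold. Leaving out cKO replicate 1, cKO replicate 2 or control replicate 2 ended the call, with adjusted p-values of 0.0514, 0.0528 and 0.0679 (limma) at log2 differences of -1.05, -1.04 and -1.10.

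**Figure D2:**
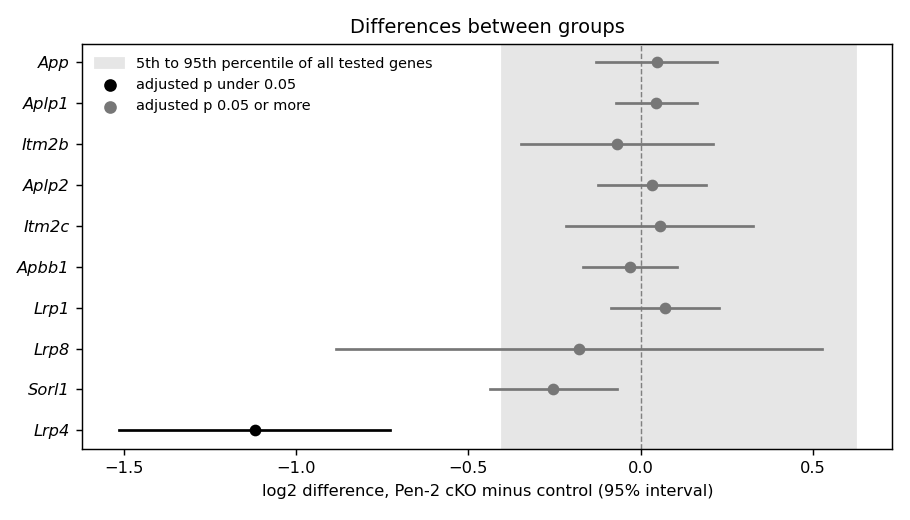
Log2 difference, Pen-2 cKO minus control, with its 95% interval for each of the 10 genes; the grey band spans the 5th to 95th percentiles of all tested genes (-0.40 to 0.62). *Lrp4* lies outside the band at -1.12, *Sorl1* is below 0 without passing the test, and the interval of *Lrp8* is the widest, from -0.88 to 0.53.

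The fall of *Lrp4* went together with a fall of astrocyte markers. Of 8 such markers 5 fell and none rose, none was at 0, and their summed level was 70.5 to 152.1 FPKM in cKO libraries and 220.6 to 288.1 FPKM in control libraries. *Aldh1l1*, a folate enzyme used to mark astrocytes, was 1.81, 1.57 and 3.06 FPKM in cKO libraries, against 12.8, 12.03 and 13.02 FPKM in control libraries. As with *Lrp4*, cKO replicate 3 was the highest cKO library for *Aldh1l1*, and also for *Aqp4*, the astrocyte water channel (10.5, 10.4 and 23.2 FPKM in cKO, 37.8, 36.7 and 40.6 FPKM in control libraries). Among the 8 markers only *Slc1a2* had its highest cKO library elsewhere, in replicate 2. *Gja1*, *Gfap* and *Slc1a2* did not pass (limma adjusted p = 0.0851, 0.330 and 0.388), and groups overlapped for *Gfap* and *Slc1a2*. For *Gfap*, cKO replicate 3 (52.8 FPKM) was above every control library (43.1 to 47.1 FPKM). For *Slc1a2*, control replicate 1 (12.4 FPKM) lay below cKO replicates 2 and 3. The fall of *Lrp4* was smaller than that of *Aldh1l1* (log2 difference -2.56, SE 0.22), but the difference between these falls was not tested. In bulk tissue fewer cells of a type and less RNA per cell cannot be told apart, and the part of the astrocyte markers in the *Lrp4* result was not tested. In the other direction, 8 of 9 oligodendrocyte markers rose, with summed levels of 121.8 to 190.1 FPKM in cKO and 28.1 to 44.2 FPKM in control libraries, as did 4 of 6 markers of their precursors (247.8 to 312.4 and 99.0 to 126.2 FPKM). Those 4 were *Sox10*, *Olig1*, *Olig2* and *Gpr17*. The precursor markers *Pdgfra* and *Cspg4* did not pass, with smaller log2 differences of 0.27 and 0.53 (limma adjusted p = 0.102 and 0.0640).

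The 3 genes whose levels followed *Lrp4* most closely over the 6 libraries, among 11808 genes compared, were *Htra1*, a secreted serine protease, *Ppp1r3c*, a glycogen-targeting subunit of a phosphatase, and *Emp2*, a membrane protein. Their Pearson correlations with *Lrp4* on the log2 scale each came to 0.999, as a description of 6 libraries that share the same group difference. A correlation over 0.95 with *Lrp4* was found for 187 genes (1.58%) of those compared. *Htra1* was 2.72, 2.85 and 5.34 FPKM in cKO libraries, against 12.1, 14.4 and 14.7 FPKM in control libraries. *Htra1*, *Ppp1r3c* and *Emp2* fell by 1.95, 1.69 and 1.83 on the log2 scale, with adjusted p-values of 0.00759, 0.00233 and 0.00318 (limma). Because these genes were picked for likeness to *Lrp4* over the same libraries, a fall was built into the choice. Their p-values are therefore no separate support.

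**Figure D3:**
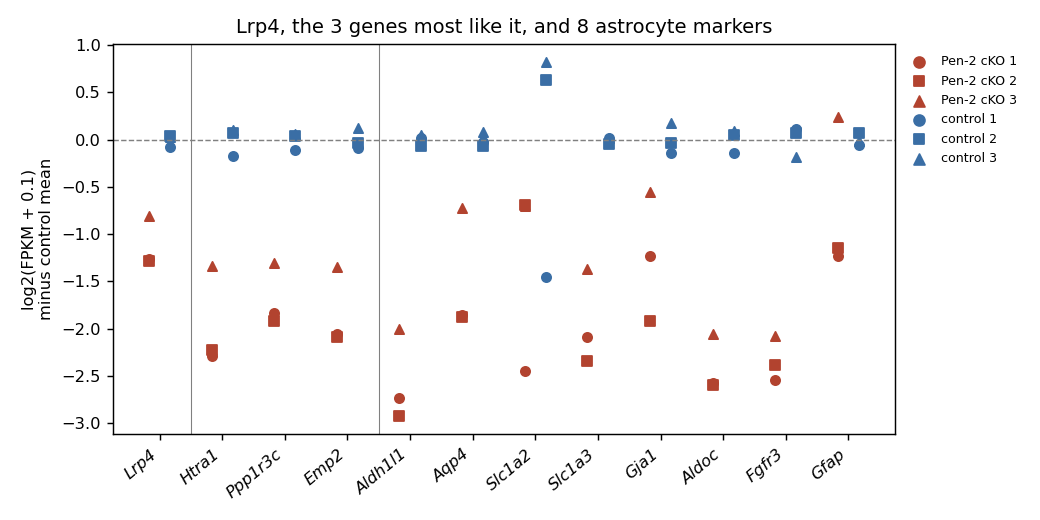
Log2(FPKM + 0.1) of each library minus the control mean for *Lrp4*, for the 3 genes most like it over the 6 libraries, and for the 8 astrocyte markers, with Pen-2 cKO left of control and a marker shape for each replicate number. For *Lrp4* and for *Htra1*, *Ppp1r3c* and *Emp2* the cKO libraries all lie below 0, and cKO replicate 3 is the nearest to the control libraries.

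*Agrn*, which encodes agrin, was 31.6, 32.7 and 31.0 FPKM in cKO libraries, against 34.4, 30.8 and 28.2 FPKM in control libraries (log2 difference 0.03, 95% interval -0.15 to 0.22). *Musk* was at 0.157 to 0.229 FPKM in cKO libraries and 0.194 to 0.343 FPKM in control libraries, below the level needed for the test. Relative to the mean log2 level of the other 9 members in the same library, *Lrp4* was again lower in every cKO library, by 1.09 on average (exact permutation p = 0.1, two-sided, the smallest that 3 against 3 libraries can give).

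*Sorl1* encodes a sorting receptor with LDL receptor repeats and a VPS10 domain that binds APP and returns it from endosomes to the Golgi. The gene (ENSMUSG00000049313, chromosome 9, 41964720 to 42124297, minus strand) was at 7.69, 7.62 and 7.53 FPKM in cKO libraries, against 9.95, 8.61 and 8.77 FPKM in control libraries. The groups did not overlap, and the cKO libraries were closely alike. The mean was 7.61 ± 0.0826 FPKM in cKO and 9.11 ± 0.731 FPKM in control cortex, 83.6% of the control level. With a log2 difference of -0.25 (SE 0.08, 95% interval -0.44 to -0.07) it did not pass the test (limma adjusted p = 0.114). Only the length and GC correction took it past the threshold (log2 difference -0.31, adjusted p = 0.0442), and over the other alternatives run the adjusted p was 0.0562 to 0.265.

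*Lrp8* encodes a reelin receptor also called ApoER2, which guides the layering of cortical neurons and acts at synapses. It was at 14.0, 7.86 and 7.21 FPKM in cKO libraries 1, 2 and 3, against 9.53, 14.3 and 8.45 FPKM in control libraries 1, 2 and 3. One library of each group, cKO replicate 1 and control replicate 2, stood well above the rest of its group. The highest library was 1.94 times the lowest in the cKO group and 1.70 times the lowest in the control group. Such a ratio reached 1.5 in both groups in 132 (1.90%) of the 6934 genes that averaged 5 FPKM or more. The log2 difference was -0.18 (SE 0.30, 95% interval -0.88 to 0.53, limma adjusted p = 0.772), so the interval runs from 0.542 to 1.44 times the control level. The annotation lists 12 transcripts of *Lrp8*, and values summed per gene cannot say from which of them a library's fragments came.

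*Lrp1* encodes a large endocytic receptor for apolipoprotein E and many other ligands. It was at 24.9, 23.8 and 27.2 FPKM in cKO libraries, against 24.7, 23.03 and 24.3 FPKM in control libraries. The groups overlapped and the log2 difference was 0.07 (95% interval -0.09 to 0.23, limma adjusted p = 0.589). Its sign turned under median-ratio scaling and after the length and GC correction, so no direction is given.

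In the APP family, levels were high and close in the 2 groups. *App* (ENSMUSG00000022892, chromosome 16, 84954440 to 85173707, minus strand) was at 429.3, 429.7 and 443.3 FPKM in cKO libraries, against 416.5, 380.3 and 468.7 FPKM in control libraries. The cKO libraries lay inside the range of the control libraries. The log2 difference of *App* was 0.05 (95% interval -0.13 to 0.22, limma adjusted p = 0.767), which corresponds to 0.914 to 1.17 times the control level. *Aplp1*, a relative expressed mainly in neurons, was at 375.1, 384.3 and 412.1 FPKM in cKO libraries, against 369.7, 381.0 and 383.2 FPKM in control libraries (log2 difference 0.05, 95% interval -0.07 to 0.16). *Aplp1* lies on the same chromosome as *Psenen*, 116286 bases from it. *Aplp2*, the more widely expressed relative, was at 110.0, 115.4 and 124.3 FPKM in cKO libraries, against 114.5, 106.5 and 120.6 FPKM in control libraries (log2 difference 0.03, 95% interval -0.12 to 0.19). The signs of these 3 differences turned under median-ratio scaling, upper-quartile scaling and the length and GC correction.

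The make-up of the family does not depend on scaling between libraries. *App* made up 46.9%, 46.2% and 45.2% of the summed FPKM of the 3 genes in cKO libraries, against 46.2%, 43.8% and 48.2% in control libraries. *Aplp1* made up 41.5% ± 0.531 in cKO and 41.4% ± 2.28 in control libraries, and *Aplp2* 12.4% ± 0.333 and 12.5% ± 0.227 (SD, n = 3 each). The difference in the mean share was 0.0566 percentage points for *App*, 0.0280 for *Aplp1* and -0.0846 for *Aplp2*, each smaller than the spread between libraries (exact permutation p = 1, 1 and 0.8, two-sided, with 0.1 the smallest possible).

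**Figure D4:**
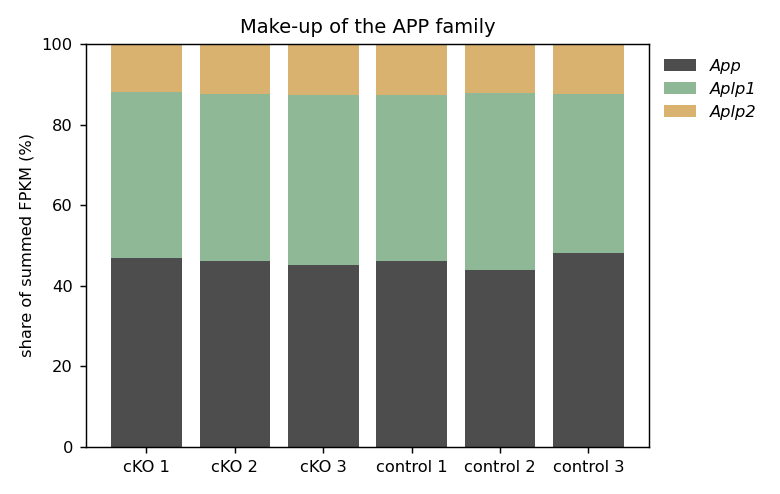
Share of *App*, *Aplp1* and *Aplp2* in their summed FPKM in each library, Pen-2 cKO left of control, each bar adding up to the whole. *App* takes between 43.8% and 48.2% of the sum in every library and *Aplp2* between 12.03% and 12.7%.

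*Apbb1*, the adaptor that binds the signal in the APP tail, was at 28.3, 29.4 and 26.2 FPKM in cKO libraries, against 28.05, 28.6 and 28.9 FPKM in control libraries. The groups overlapped, with a log2 difference of -0.03 (95% interval -0.17 to 0.11, limma adjusted p = 0.812), and the sign turned with equal sums. Of 15 other adaptors of the APP tail that were tested, none passed. The most abundant of them were *Mapk8ip1*, a JNK scaffold, at 87.7 ± 1.47 FPKM in cKO and 91.5 ± 4.88 FPKM in control cortex, and *Apba1*, also called X11 or Mint, at 67.0 ± 3.87 and 65.3 ± 1.68 FPKM. At an unadjusted p under 0.05, limma gave 3 of these 15 adaptors, a share near the 22.9% of all tested genes.

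*Itm2b*, which encodes the BRI protein mutated in familial British and Danish dementia, was at 150.1, 165.3 and 202.0 FPKM in cKO libraries, against 183.5, 160.5 and 196.2 FPKM in control libraries. Its log2 difference was -0.07 (95% interval -0.35 to 0.21, limma adjusted p = 0.782), and the groups overlapped. *Itm2c*, its neuronal relative, was at 42.3, 41.1 and 56.0 FPKM in cKO libraries, against 42.6, 44.0 and 46.4 FPKM in control libraries (log2 difference 0.06, 95% interval -0.21 to 0.33). In both genes, as in *Aplp1*, *Aplp2* and *Lrp1*, cKO replicate 3 was the highest of the 6 libraries, so that 5 of the 10 genes peaked there, against 26.7% of all tested genes. The choroid plexus gene *Ttr* was likewise highest there, at 323.8, 181.8 and 876.5 FPKM in cKO libraries, against 33.1, 103.5 and 178.1 FPKM in control libraries. The 5 choroid plexus markers, none of them at 0 in all libraries, summed to 183.5 to 884.7 FPKM in cKO and 34.8 to 180.7 FPKM in control libraries. Nearly all of that sum was *Ttr*. None of the 3 choroid plexus markers that were tested passed. Groups overlapped for *Kcnj13*, *Folr1* and *Clic6* but not for *Ttr* and *Otx2*. The part of these markers in the values of the 5 genes that peaked in cKO replicate 3 was not tested. Of the other BRI and BRICHOS genes, none of 3 tested passed: *Itm2a* was 56.3 ± 9.94 FPKM in cKO and 44.4 ± 1.66 FPKM in control cortex, and *Bri3bp* 17.8 ± 1.11 and 16.0 ± 1.06 FPKM. At an unadjusted p under 0.05, limma gave 1 of these 3 genes, against 22.9% of all tested genes.

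Among other genes of the LDL receptor family, 1 of 13 rose and none fell, with a median log2 difference of 0.03. Of all tested genes, 3.67% rose and 1.87% fell, with a median of 0.07. The gene that rose was *Ldlrad3*, a small receptor with LDL receptor class A repeats, at 5.12, 5.17 and 6.34 FPKM in cKO libraries, against 3.90, 3.57 and 4.06 FPKM in control libraries. Every cKO library was above every control library (log2 difference 0.51, SE 0.11, limma adjusted p = 0.0462). This narrow call was lost in 12 of 17 alternatives, among them leaving out any 1 of the 6 libraries (adjusted p = 0.0583 to 0.153). *Vldlr*, the other reelin receptor, was 10.4 ± 0.351 FPKM in cKO and 10.5 ± 0.802 FPKM in control cortex, and *Lrpap1*, the chaperone of the receptor family, 24.7 ± 0.987 and 24.1 ± 0.584 FPKM.

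Among 13 other genes of VPS10 receptors and retromer, the endosomal coat with which SORL1 works, 2 rose and none fell. Their median log2 difference was 0.09, near the 0.07 of all tested genes, of which 3.67% rose. Both genes that rose were sorting nexins, membrane-bending partners of retromer. *Snx1* was at 10.1, 11.5 and 11.2 FPKM in cKO libraries, against 8.19, 7.24 and 7.30 FPKM in control libraries (log2 difference 0.52, SE 0.08, limma adjusted p = 0.0171). The groups did not overlap, and leaving out cKO replicate 2 or control replicate 2 ended the call, with adjusted p-values of 0.0774 and 0.0763 (limma). *Snx5* was at 11.96, 11.7 and 12.6 FPKM in cKO libraries, against 8.84, 9.61 and 10.2 FPKM in control libraries (log2 difference 0.34, SE 0.08, limma adjusted p = 0.0469). The *Snx5* call was lost in 11 of 17 alternatives, among them leaving out cKO replicate 1, 2 or 3 or control replicate 1 or 2 (adjusted p = 0.113 to 0.142). The retromer core gene *Vps35* was 88.1 ± 1.39 FPKM in cKO and 83.4 ± 1.67 FPKM in control cortex and did not pass (adjusted p = 0.329).

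In the reelin pathway, 1 of 11 genes rose and none fell, with a median of -0.02. For all tested genes the share that rose was 3.67% and the median 0.07. *Fyn*, a kinase that phosphorylates the reelin adaptor DAB1, was at 30.6, 36.8 and 33.7 FPKM in cKO libraries, against 23.2, 22.8 and 22.3 FPKM in control libraries. Its log2 difference of 0.56 (SE 0.07, limma adjusted p = 0.00759) kept its call under every alternative run (adjusted p = 0.00548 to 0.0455). *Fyn* is also used by oligodendrocytes, whose markers rose as given above, and their part in its rise was not tested. *Reln* was 7.91 ± 0.937 FPKM in cKO and 6.54 ± 0.417 FPKM in control cortex and *Dab1* 12.5 ± 0.210 and 15.3 ± 1.68 FPKM, neither of which passed (adjusted p = 0.182 and 0.113).

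Of 15 tested ligands and coreceptors, 1 fell and none rose, with a median of -0.04. For all tested genes the share that fell was 1.87% and the median 0.07. *Ptn*, a secreted heparin-binding growth factor, was at 99.4, 92.8 and 117.3 FPKM in cKO libraries, against 164.8, 179.6 and 189.5 FPKM in control libraries. Its log2 difference of -0.79 (SE 0.09, limma adjusted p = 0.00521) kept its call under every alternative run. As with *Lrp4*, cKO replicate 3 was the highest cKO library, and the part of the astrocyte markers in the fall of *Ptn* was not tested. *Apoe*, which encodes the main apolipoprotein of the brain and a ligand of LRP1 and LRP8, was at 28.1, 16.4 and 85.0 FPKM in cKO libraries, against 67.1, 68.7 and 73.1 FPKM in control libraries. Its cKO libraries were spread on both sides of the control libraries, and it did not pass (adjusted p = 0.352). Of all alternatives, only the one without cKO replicate 3 gave a call for *Apoe*, as lower (log2 difference -1.69, limma adjusted p = 0.0137). *Clu*, another apolipoprotein made by astrocytes, was 21.2 ± 5.22 FPKM in cKO and 32.8 ± 3.32 FPKM in control cortex. Its groups did not overlap, as in 8.17% of tested genes with the cKO libraries lower, but the limma adjusted p was 0.0691. *Clu* passed without cKO replicate 3, with the length and GC correction and with replicate number as a block (limma adjusted p = 0.00546, 0.0280 and 0.0353). In the other direction, *Calr*, a chaperone of the endoplasmic reticulum, was 107.0 ± 2.86 FPKM in cKO and 73.9 ± 16.0 FPKM in control cortex, likewise without overlap (log2 difference 0.55, adjusted p = 0.0606). At an adjusted p under 0.05, *Calr* passed only without control replicate 3 and with equal sums (limma adjusted p = 0.00304 and 0.0301). *Apod*, an apolipoprotein of the lipocalin family, was at 6.99, 5.87 and 14.5 FPKM in cKO libraries, against 3.99, 3.60 and 3.15 FPKM in control libraries (log2 difference 1.22, adjusted p = 0.0803). The groups lay apart, as in 21.5% of tested genes with the cKO libraries higher. At an adjusted p under 0.05, *Apod* passed only without cKO replicate 3 (limma adjusted p = 0.0253). *Apoe*, *Clu*, *Calr*, *Apod*, *Agrn*, *Musk*, *Vldlr*, *Lrpap1*, *Vps35*, *Reln*, *Dab1* and the cell type markers were named after their values were seen.

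**Figure D5:**
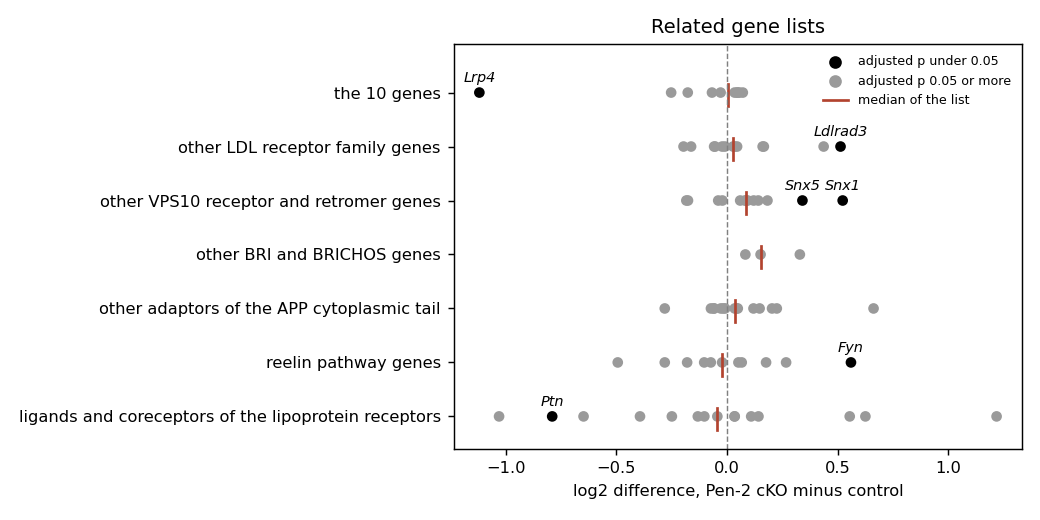
Log2 difference, Pen-2 cKO minus control, of each tested gene in the 10 genes and in the 6 related lists, with a line at each list's median; genes past the adjusted test are in black and named. *Lrp4* and *Ptn* lie below 0 at -1.12 and -0.79, and *Ldlrad3*, *Snx1*, *Snx5* and *Fyn* above 0 at 0.51, 0.52, 0.34 and 0.56.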

How the data were processed

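Total RNA was turned into the 6 libraries with a VAHTS Universal kit, per the labels' protocols. The authors used the build mm10, per the submitters' processing notes. Which aligner, counter and annotation release they used, and whether strand was counted, is not given in the sources used here, so fragments of overlapping antisense genes, which *App*, *Lrp1*, *Lrp8* and *Sorl1* have, may not be separated. The deposited values of each library are FPKM, per the file headers, despite a name that speaks of raw counts. Each of the 6 per-library tables held the same values as that library's column of the series table. Whole fragments came out within 0.01 for 94.0% to 95.0% of the lowest values in genes with 1 transcript, which gave the depths, but the effective length of other genes is not known, so no count test was run. The authors' group values and tests were not used.

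Limma 3.58.1 in R 4.3.3 (moderated test, mean-variance trend, robust) was run on log2(FPKM + 0.1) for genes that reached 0.5 FPKM in 3 or more libraries, with group as the only term and Benjamini-Hochberg adjustment over all 14147 genes. Fold changes on that scale understate the change of low genes. An adjusted p under 0.05 was called, and intervals are at 95%. On simulated data for cKO against control with 200 of 14147 genes changed, 53.6% of 1.5-fold, 82.4% of 2-fold and 95.2% of 4-fold changes were recovered, with 11 unchanged genes among 164 called. Family shares used an exact permutation test in SciPy 1.17.1; pandas 2.3.3, NumPy 2.4.6, Python 3.11.15 and matplotlib 3.10.9 handled tables and figures.

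The members and lists were chosen with earlier results of these data known. All 10 members are named. In each related list the rule names the called genes, at most 4 in order of p, and in a list without calls the 2 most abundant genes. The genes most like a called member are the 3 with the highest Pearson correlation among tested genes that averaged 1 FPKM or more in a group and are not predicted genes by symbol. Symbols of 27 genes turned into dates were restored by gene ID, and 2 list genes under older symbols were matched by ID. Coordinates are those of the deposited tables, identical to GENCODE M21 for 27763 genes.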

Additional observations from a re-analysis of the deposited data

How the results depend on the processing

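*Lrp4* stayed lower in all 17 alternatives, with the call lost in the 3 given above. The signs of small differences depended on scaling. Median-ratio scaling gave *App* -0.025, *Aplp1* -0.025, *Aplp2* -0.038, *Itm2c* -0.016, *Lrp1* -0.00041 and *Apba1* -0.037. Upper-quartile scaling gave *App* -0.022, *Aplp1* -0.022, *Aplp2* -0.035, *Itm2c* -0.013 and *Apba1* -0.034. The length and GC correction gave *App* -0.0073, *Aplp1* -0.060, *Aplp2* -0.052, *Itm2c* -0.047, *Lrp1* -0.0025 and *Apba1* -0.050. Equal sums gave *Apbb1* 0.022. Leaving out 1 library at a time gave -0.026 to 0.13 for *App*, -0.014 to 0.076 for *Aplp2*, -0.19 to 0.026 for *Itm2b*, -0.085 to 0.14 for *Itm2c*, -0.47 to 0.045 for *Lrp8*, -0.066 to 0.015 for *Apbb1* and -0.0032 to 0.080 for *Apba1*. The shares then differed by -1.07 to 1.11 percentage points for *App*, -0.996 to 1.25 for *Aplp1* and -0.241 to 0.0905 for *Aplp2*. These causes were not tested.

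Of all genes, 783 were called, against 499 with no filter, 1519 at an adjusted p under 0.1 and 210 to 813 without 1 library. Of the 10 genes, 2 were called with the length and GC correction and 0 to 1 without 1 library. Of the related lists 5 genes were called, 4 higher and 1 lower, against 3 with no filter, with median-ratio or upper-quartile scaling or with no trend, 10 at an adjusted p under 0.1, and 2 to 8 without 1 library. The split was 2 higher and 4 lower with the length and GC correction, where *Clu*, *Dab1* and *Lrp12* joined *Ptn*. Without cKO replicate 3 it was 4 and 4, where *Apoe*, *Clu* and *Sparc* joined *Ptn*. Deviations from the group means correlated at 0.0606, 0.0116 and 0.1 between libraries of the same replicate number. Between different numbers the correlations ran from -0.0905 to 0.0562. With so few libraries these values cannot show whether the numbers pair them. With the replicate numbers as a block 456 genes, 1 of the 10 (*Lrp4*, adjusted p = 0.0335) and 3 of the related lists (1 higher, 2 lower) were called. The block ended the calls of *Snx1* (adjusted p = 0.0602), *Snx5* (0.0780) and *Ldlrad3* (0.0616). The smallest exact p for 3 against 3 libraries is 0.1.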
